A study of Mus musculus with 4 samples.

Results

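The 6 genes of intestinal calcium absorption and vitamin D signalling, S100g, Trpv6, Atp2b1, Vdr, Cyp24a1 and Rxra, were followed over 4 arrays of gut epithelium. They were chosen by symbol, with their intensities and differences on these 4 arrays already known, so the values are described and not tested. They are 6 of 18193 genes on the array, and 12 of its 45101 probe sets carried 1 of these symbols. The study captured epithelial cells by laser from frozen sections of ileum and proximal colon of C57/Bl6 mice. The groups were wild type colon, germ-free colon, wild type ileum and germ-free ileum, where germ-free mice are raised without microbes and the wild type mice served as controls. Each group was 1 array, hybridised with amplified RNA pooled from 4 mice, so the spread between mice is unknown, precision is limited by having 1 array a group, and no p-value is given. The labels give no age, sex or diet, and they mention hematoxylin staining for the germ-free sections alone, so staining and germ-free state cannot be told apart.

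Calcium crosses the absorptive cell in 3 steps. The channel TRPV6 admits it at the brush border, the small cytosolic buffer encoded by S100g, an intestinal calbindin, carries it through the cell, and the calcium pump encoded by Atp2b1 extrudes it at the basolateral side. Calcitriol, the hormone form of vitamin D, binds the receptor encoded by Vdr, which pairs with the retinoid X receptor encoded by Rxra and acts on target genes. S100g, Trpv6 and Cyp24a1, whose enzyme inactivates calcitriol, are well known targets of this receptor in the intestine.

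Promoter sequences from RefSeq (build GRCm38.p6) were matched for 5 of the 6 genes, with 7 start sites in all. The 250 bases upstream of the start are shown for S100g and Trpv6, the buffer and the channel, because both are receptor targets and their readings on these arrays were unlike. Capitals mark AGGTCA, a core hexamer of the kind that nuclear receptors bind, or its complement TGACCT. S100g lies on the minus strand, with its window at chrX:162964600-162964849, and Trpv6 on the minus strand at chr6:41636406-41636655.
S100g: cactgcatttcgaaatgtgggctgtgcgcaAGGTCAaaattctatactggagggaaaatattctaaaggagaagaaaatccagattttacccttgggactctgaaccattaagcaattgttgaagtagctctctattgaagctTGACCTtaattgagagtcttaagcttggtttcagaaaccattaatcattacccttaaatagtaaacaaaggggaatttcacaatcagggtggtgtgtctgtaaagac
Trpv6: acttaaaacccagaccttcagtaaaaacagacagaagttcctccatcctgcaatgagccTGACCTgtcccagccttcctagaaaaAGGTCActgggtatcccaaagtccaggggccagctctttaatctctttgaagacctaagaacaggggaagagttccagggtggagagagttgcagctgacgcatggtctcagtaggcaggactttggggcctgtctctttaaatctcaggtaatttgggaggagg
Both windows held AGGTCA at 2 places on either strand, beginning 220 and 107 bases upstream in S100g and 191 and 165 bases upstream in Trpv6. The second start site of Rxra also held 2, beginning 87 and 48 bases upstream, and the windows of Atp2b1, Vdr and the first Rxra start site held 0. At least 1 such match was found in 4604 of 32817 promoter windows of the same length, and at least 2 in 1.36%. The related hexamer GGTTCA, searched on both strands, occurred at 1 place in S100g, 149 bases upstream, and in 8.84% of all windows. The full vitamin D response element of the DR3 type, a direct repeat of hexamers with 3 bases between them, was in neither window and in 0.0396% of all windows. Matches of these letters describe the windows alone.

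The intensities given here are quantile-normalized, and readings under a floor of 62.4, the pooled median of all arrays, count as not measured. A gene is represented by its brightest probe set, and a difference against a floored reading is a bound. All 11 epithelium markers were measured, and 0 differed at least 2-fold in any of the 4 comparisons, germ-free against wild type in each region and ileum against colon in each kind of mouse. Car1, a colonic carbonic anhydrase, read 14384 and 12438 on the wild type and germ-free colon arrays against 64.7 and 32.5 in ileum. Fabp6, the ileal bile acid binding protein, read 16920 and 18190 in ileum, 767 in wild type colon and 6008 in germ-free colon. The technical error of a log2 difference was taken as the SD between the brightest pair of probe sets of 1 gene over 2647 genes. Only probe sets above the pooled 75th percentile of 259 on at least 1 array entered it. The error was 0.33 for the germ-free comparison in colon and 0.26 in ileum. It was 0.38 for ileum against colon in wild type and 0.37 in germ-free mice. Both probe sets of a pair are read on the same arrays, so the error measures their disagreement alone. It holds no variation between animals. Any effect of capture, amplification, RNA quality or hybridisation that moves both probe sets alike is also left out. Of all measured genes 4.52% differed at least 2-fold between the colon arrays and 0.928% between the ileum arrays, and 12.0% and 13.2% between the regions in wild type and in germ-free mice. In colon 28.6% of the genes past 2-fold were higher on the germ-free array, but 51.8% in the values as deposited and 19.3% with median scaling. For germ-free ileum against germ-free colon the higher share was 55.6%, against 38.5% as deposited and 64.4% with median scaling. The median of all genes lay at -0.01 log2 for the colon arrays, 0.09 as deposited and -0.14 with median scaling. For the regions in germ-free mice it lay at 0.04, -0.11 and 0.18.

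S100g was the member with by far the widest range. Its probe set, 1448964_at, read 5434 in wild type colon, 759 in germ-free colon, 419 in wild type ileum and 123 in germ-free ileum. Each germ-free array was below the wild type array of its region, and both ileum arrays were below both colon arrays. The level in colon was 7.16-fold lower on the germ-free array, a log2 difference of -2.84, and 7 of 11746 measured genes had a more negative one. In the ileum it was 3.42-fold lower, a log2 difference of -1.77, and 15 of 11750 genes had a more negative one. Both differences were larger than the technical error. Germ-free colon and wild type ileum, the nearest neighbours in this order, differ in region and in germ-free state, and no technical error was computed for that pair. In these pooled captures, fewer cells of a type and less RNA per cell cannot be told apart. The deposited values kept the same order, at 5564, 821, 403 and 115. Since S100g is measured by 1 probe set, no other probe set of the gene can be set beside it.

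By region, S100g was lower in ileum than in colon, with a log2 difference of -3.70 in wild type mice and of -2.63, or 6.19-fold, in germ-free mice. These contrasts share arrays with the germ-free contrasts, so the 4 values are not independent of each other. The germ-free change was more negative in colon than in ileum by 1.07 on the log2 scale, where the combined technical error was 0.42, and 470 of 11065 genes measured in both regions had a more negative difference. With 1 array per group this difference was not tested. S100g was 1 of 13 genes, 0.117% of those measured in both regions, whose germ-free reading was lower by 2-fold or more in colon and in ileum.

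**Figure D1:**
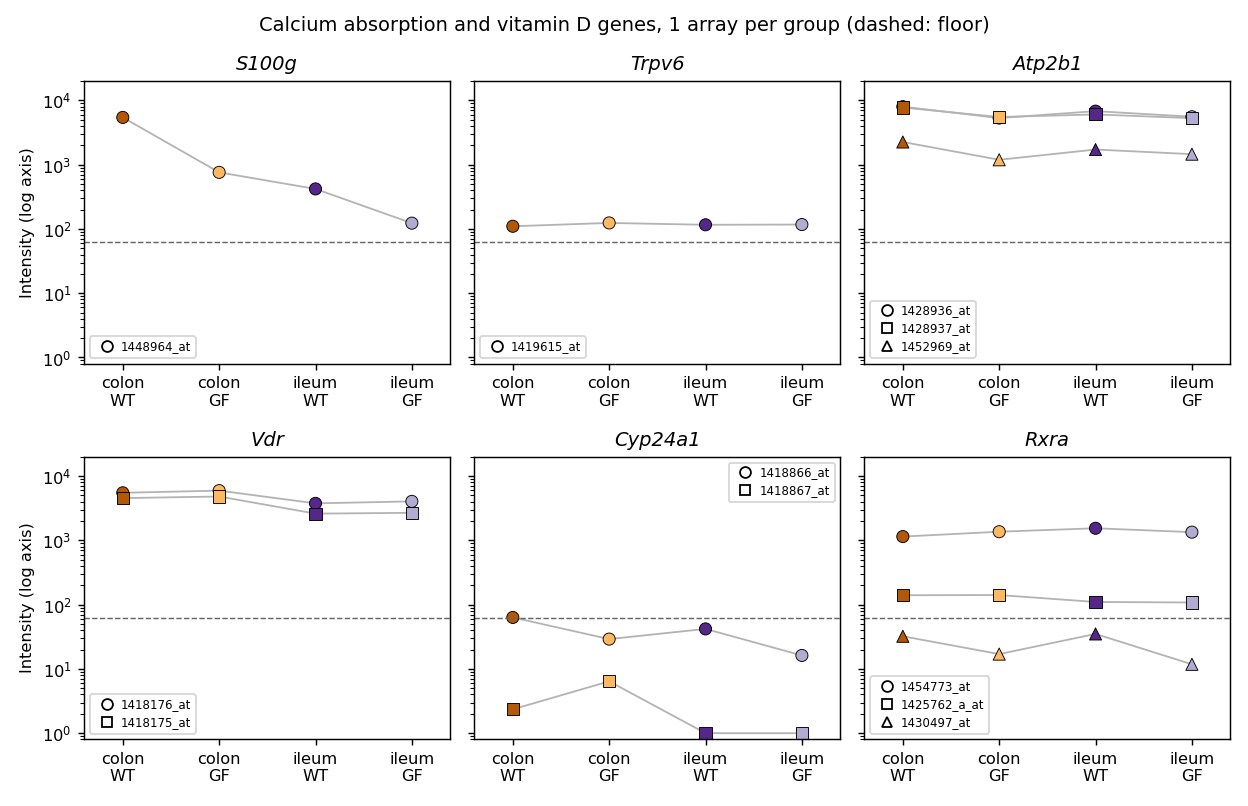
Intensity (log axis) of every probe set of the 6 genes on the 4 arrays (WT, wild type, GF, germ-free), 1 point per array with no error bar because each group is 1 array. S100g steps down from 5434 to 123 across the arrays, while the probe sets of Vdr and Atp2b1 stay at or above 1191 throughout and those of Cyp24a1 lie around or under the dashed floor of 62.4.

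Trpv6, the entry channel, was near the floor and flat. Its probe set 1419615_at read 110 in wild type colon, 124 in germ-free colon, 116 in wild type ileum and 117 in germ-free ileum. The 4 arrays spanned 0.17 log2, which is inside the technical error of each comparison, though that error was taken from brighter probe sets. The germ-free difference was 0.17 log2 in colon and 0.01 in ileum, where the values as deposited gave 0.28 and -0.02. For germ-free ileum against germ-free colon the difference was -0.09, and -0.31 as deposited. Each of these was inside the technical error of its comparison. All 4 readings were above the floor but under the pooled 75th percentile of 259, so a change of the channel transcript is less well resolved than one of S100g or Atp2b1.

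Atp2b1, the basolateral pump, was bright on every array and lower on both germ-free arrays by all 3 of its probe sets. The brightest, 1428936_at, read 7983 in wild type colon, 5308 in germ-free colon, 6802 in wild type ileum and 5563 in germ-free ileum. Its neighbour 1428937_at read 7737, 5512, 6047 and 5291 in the same order, and 1452969_at read 2253, 1191, 1719 and 1456. On each probe set the wild type colon array was highest. The log2 differences between germ-free and wild type colon were -0.59, -0.49 and -0.92, all beyond the technical error of 0.33, though none reached 2-fold. In ileum they were -0.29, -0.19 and -0.24, of which the first alone exceeded the technical error of 0.26. The probe sets share an array pair and a target gene, so they do not replicate the mice. Of 11746 genes 10.8% had a more negative colon change than Atp2b1, and of 11750 genes 12.7% a more negative ileum change. The direction was the same with the values as deposited (-0.66 in colon, -0.37 in ileum), with median scaling (-0.91, -0.32) and with scaling on the epithelium markers (-0.67, -0.20).

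Vdr, the receptor, differed with the region and much less with the germ-free state. Probe set 1418176_at read 5494 in wild type colon, 5940 in germ-free colon, 3764 in wild type ileum and 4041 in germ-free ileum. Probe set 1418175_at read 4541, 4812, 2606 and 2680. Both colon arrays were above both ileum arrays by either probe set. The ileum was lower by a log2 difference of -0.55 and -0.80 in wild type mice and of -0.56 and -0.84 in germ-free mice, beyond the technical errors of 0.38 and 0.37. With median scaling the brightest probe set gave -0.51 and -0.23, so the germ-free value then fell inside the error. The germ-free differences were 0.11 and 0.08 in colon and 0.10 and 0.04 in ileum, all inside the technical error, and median scaling turned the colon value to -0.20.

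Rxra, the partner of the receptor, was read by 3 probe sets that did not behave alike. The brightest, 1454773_at, read 1145 in wild type colon, 1363 in germ-free colon, 1542 in wild type ileum and 1342 in germ-free ileum. Probe set 1425762_a_at read 140, 141, 110 and 108, and 1430497_at stayed under the floor on all 4 arrays, between 11.8 and 35.0. The brightest was lowest in wild type colon and highest in wild type ileum, with a log2 difference of 0.43 between them, against a technical error of 0.38. The next probe set gave -0.35 for the same pair, so the direction by region depended on the probe set. The germ-free differences of the brightest were 0.25 in colon and -0.20 in ileum, both inside the technical error, and the next probe set gave 0.01 and -0.03. The mean of the 3 probe sets gave -0.22 in colon, but it takes in 1430497_at, whose readings of 32.2 and 17.0 there were under the floor.

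Cyp24a1, the calcitriol-inactivating hydroxylase, was not measured on 3 of the 4 arrays. Probe set 1418866_at read 63.2 in wild type colon, just above the floor of 62.4, and 29.1, 41.9 and 16.2 in germ-free colon, wild type ileum and germ-free ileum. The other probe set, 1418867_at, read 6.41 or less on every array. No fold is given, since 1 reading alone lay above the floor, and readings under it have no order.

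By comparison, 1 of the 6 measured members was at least 2-fold different between the colon arrays (4.52% of all genes), 1 of 5 between the ileum arrays (0.928%), 1 of 6 between the regions in wild type (12.0%) and 1 of 5 in germ-free mice (13.2%). In each case it was S100g, lower each time, where 3.23%, 0.698%, 5.93% and 5.88% of all genes were lower by that much, and since the members were chosen with these contrasts known, nothing is read from the counts. The median log2 difference over the members was 0.05 in colon and -0.20 in ileum with the germ-free state, against -0.01 and 0.03 over all measured genes. The colon median is over 6 members and takes in the bound of Cyp24a1, while the ileum median is over 5 without it.

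**Figure D2:**
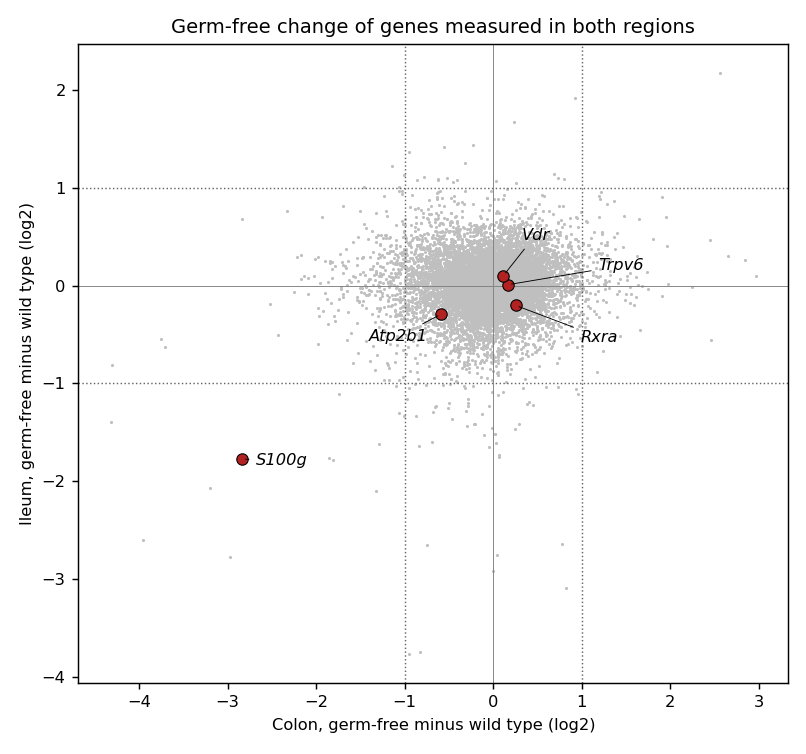
Log2 difference of germ-free against wild type in colon (horizontal) and ileum (vertical), for the 11065 genes measured in both regions (grey points) with the 5 members measured in both in red and 2-fold marked by dotted lines. S100g lies at -2.84 and -1.77, past 2-fold on both axes, and Atp2b1, Vdr, Trpv6 and Rxra lie inside the 2-fold lines.

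The wider pathway was described by 10 lists of other genes, 95 genes in all, of which 81 were on the array by symbol. With the germ-free state 3 of 59 measured genes were at least 2-fold lower in colon and 0 higher, or 5.08% lower against 3.23% of all genes, where 1.29% of all genes were higher. In ileum 0 of 57 passed 2-fold in either direction, against 0.230% of all genes higher and 0.698% lower. Their median log2 difference was -0.06 in colon and 0.07 in ileum.

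The colon genes past 2-fold came from the lists of other receptor targets and of receptors that pair with RXR. These lists were chosen with earlier results of these data known, so no theme is read from them. Slc30a10, a manganese exporter and vitamin D receptor target, read 179 in germ-free and 2330 in wild type colon, a log2 difference of -3.71. In ileum it read 196 against 303, a log2 difference of -0.63. Cyp3a11, a drug-metabolising P450 that this receptor and the xenobiotic receptors can induce, read 37.6 against 194 in colon, at least 3.11-fold lower, and 1810 against 2182 in ileum. Pparg, a fatty acid-sensing receptor that pairs with RXR, read 876 against 2215 in colon, 2.53-fold lower, and 176 against 188 in ileum. Cyp3a11, Slc30a10 and Pparg were in lists of 7, 7 and 10 measured genes, whose medians of -0.13 and -0.06 lay near 0.

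The other receptor targets with readings above the floor on all 4 arrays differed by less than 2-fold with the germ-free state. Abcb1a, a drug efflux pump, read 7682 against 13314 in germ-free and wild type colon, a log2 difference of -0.79, and 9085 against 8778 in ileum. Cd14, a lipopolysaccharide coreceptor, read 673 against 342 in colon, a log2 difference of 0.98, and 192 against 278 in ileum, at -0.53. Slc34a2, a phosphate transporter, read 1991 against 1286 in colon (0.63) and 5418 against 7104 in ileum (-0.39). Cdkn1a, a cell cycle inhibitor, differed by 0.17 in colon and 0.18 in ileum. Fgf15 and Tnfsf11 were under the floor on all arrays, and Camp, an antimicrobial peptide gene, read 68.6 in wild type colon and was under the floor on the other arrays. Across the 7 measured targets the colon differences ran from -3.71 to 0.98 and across 6 in ileum from -0.63 to 0.18.

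The lists of genes around the transport steps were short, and of all genes 4.52% passed 2-fold in colon and 0.928% in ileum. A count of 0 in such a list therefore does not set it apart. Of the other entry, buffer and efflux genes 4 were measured in colon and 5 in ileum, and 0 passed 2-fold. Calb1 and Calb2, which encode larger calbindins, and the pumps Atp2b2 and Atp2b4 stayed under the floor on all arrays. Atp2b3, a further calcium pump, read 81.1 against 127 in colon and 161 against 109 in ileum. Trpm6, a magnesium channel of the same wider channel family as Trpv6, read 3325 against 2308 in colon (0.53) and 2192 against 1590 in ileum (0.46). Of the genes whose proteins bind the channel 6 were measured and 0 passed 2-fold. S100a10 and Anxa2, which encode a complex that takes the channel to the membrane, differed by 0.34 and 0.39 in colon and by 0.07 and 0.06 in ileum. Pdzd3, a scaffold gene, came closest, at 2982 against 1500 in colon (0.99).

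Among the other S100 genes 7 were measured and 0 passed 2-fold in either germ-free contrast, where 4.52% and 0.928% of all genes did. A count of 0 here or in the short lists that follow does not set a list apart. The log2 differences of these 7 S100 genes ran from -0.34 to 0.77 in colon and from -0.35 to 0.24 in ileum, against -2.84 and -1.77 for S100g. The genes listed for intracellular calcium stores, which include reticulum calcium pumps and sensors, the store-operated Orai channels of the plasma membrane and the mitochondrial uniporter Mcu, had 0 of 10 past 2-fold in colon and 0 of 9 in ileum. The tight junction genes Cldn2, Cldn12 and Cldn15 had differences from -0.19 to 0.37 in colon and from -0.42 to 0.10 in ileum. The activating hydroxylases Cyp27b1 and Cyp2r1 were under the floor on all arrays, and the 3 measured genes of vitamin D supply ran from -0.20 to 0.63 in colon and from -0.02 to 0.07 in ileum. The coregulators and other RXR genes, 7 measured, stayed between -0.06 and 0.22 in colon and between 0.08 and 0.28 in ileum. Of the calcium sensing and hormone genes 3 were measured, all at or under 132 on every array, and 0 passed 2-fold with the germ-free state.

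**Figure D3:**
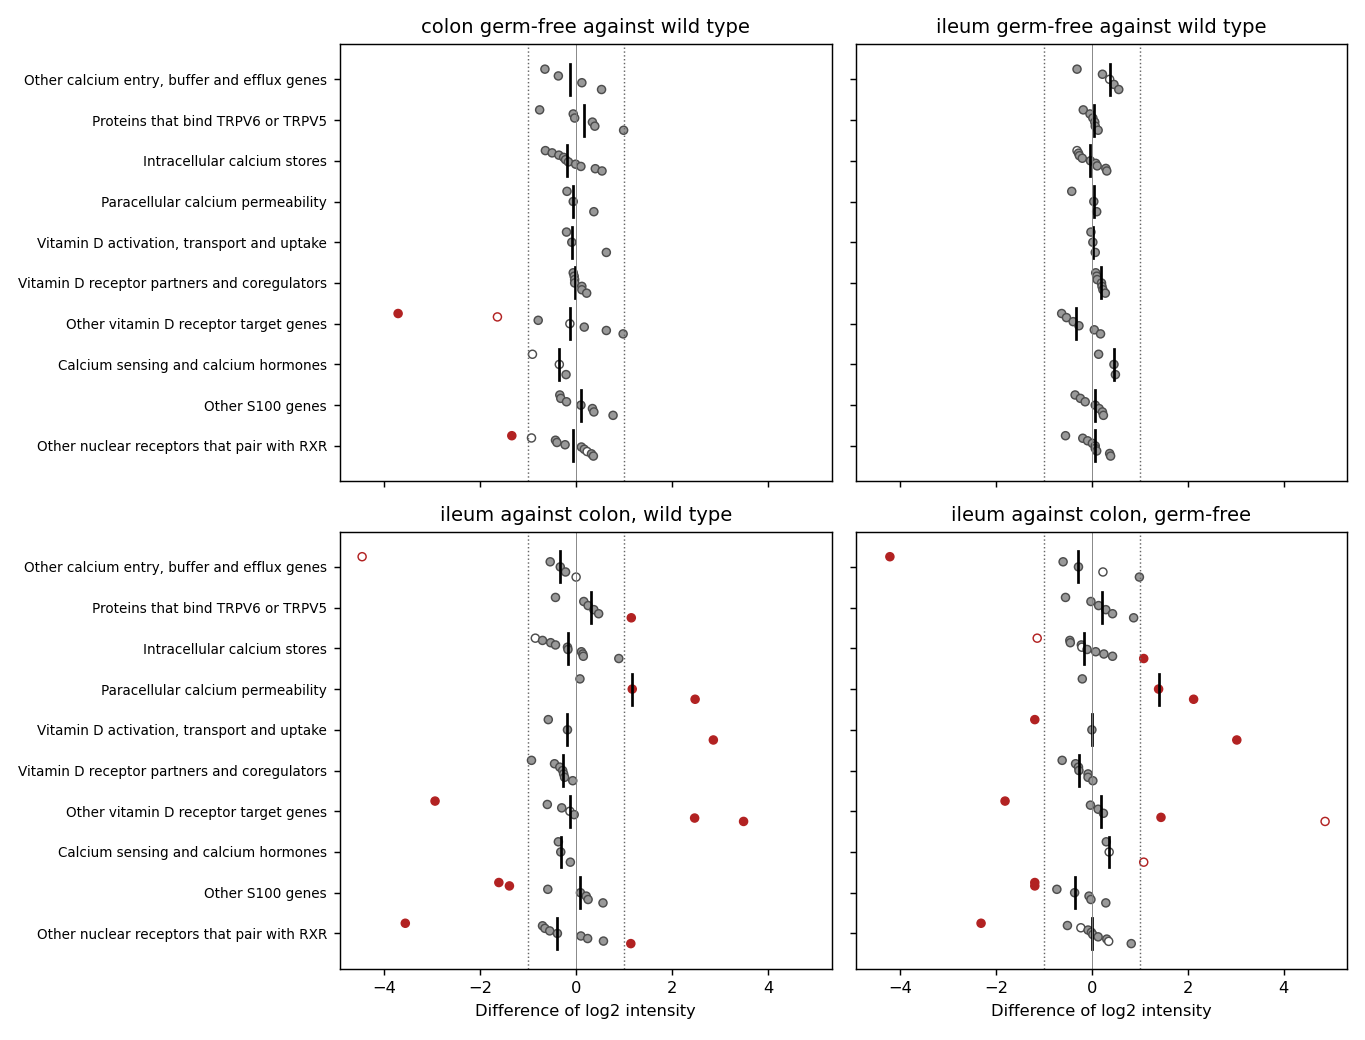
Difference of log2 intensity of the measured genes of the 10 pathway lists in the 4 comparisons, 1 point per gene, with black bars at list medians, dotted lines at 2-fold, red for genes past 2-fold and open points for bounds. With the germ-free state 3 genes in colon and 0 in ileum lie past 2-fold, while more genes do between the regions.

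Between the regions the pathway differed more. In wild type mice the ileum had 7 of 59 measured genes past 2-fold on the higher side and 5 on the lower, or 11.9% and 8.47%, against 6.04% and 5.93% of all genes. In germ-free mice 7 were higher and 7 lower, 11.9% each, against 7.37% and 5.88%. Slc8a1, a sodium-calcium exchanger that offers another way out of the cell, read 1371 and 1490 on the wild type and germ-free colon arrays and 40.5 and 80.6 in ileum. It was lower in ileum, as S100g was, by at least 22.0-fold in wild type and by 18.5-fold in germ-free mice. Cubn, a receptor for vitamin D binding protein among other ligands, was 7.27-fold higher in ileum of wild type mice and 8.12-fold in germ-free mice.

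Of the paracellular claudins, Cldn15 and Cldn2 were also on the ileal side. Cldn15 was higher in ileum by 5.57-fold in wild type and 4.36-fold in germ-free mice, and Cldn2 2.25-fold and 2.63-fold, while Cldn12 differed by 0.08 and -0.20 log2. Among the targets, Cyp3a11 was 11.2-fold higher in wild type ileum and Slc34a2 5.53-fold higher, and Slc30a10 7.68-fold lower. In germ-free mice Cyp3a11 was at least 29.0-fold higher in ileum, Slc34a2 2.72-fold higher and Cd14 3.50-fold lower. Slc30a10 then read 196 in ileum against 179 in colon, a log2 difference of 0.13, whereas S100g kept a regional difference of -2.63. Of the 7 other S100 genes measured, 2 were at least 2-fold lower in ileum in each kind of mouse. These were S100a1, by 3.04-fold and 2.28-fold, and S100a13, by 2.62-fold and 2.28-fold in wild type and germ-free mice. In wild type 4 of the 7 were higher in ileum, S100a16 the most at 0.56 log2, and the list median was 0.09. In germ-free mice 1 of the 7 was higher, and the median was -0.36. Pparg was 11.8-fold and 4.98-fold lower in ileum. In wild type mice Pdzd3 and Nr1h3, an oxysterol receptor gene, were each 2.21-fold higher in ileum, and in germ-free mice 1.22-fold and 1.76-fold. In germ-free mice Orai1 was 2.11-fold higher in ileum, Casr, the calcium-sensing receptor, at least 2.11-fold higher, Orai3 at least 2.20-fold lower and Cyp27a1, a sterol hydroxylase gene, 2.29-fold lower. These 4 differed by less than 2-fold in wild type mice.

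The genes whose profile over the 4 arrays was nearest to that of S100g were found among 7611 other bright genes by the root mean square distance between log2 values centred on each gene's mean. Lpl, lipoprotein lipase, was nearest at 0.44 log2, with 2070 in wild type colon, 572 in germ-free colon, 323 in wild type ileum and 95.6 in germ-free ileum. Nupr1, a stress-induced nuclear protein gene, followed at 0.54 with 4294, 1284, 256 and 119. Shisa2 was at 0.69, Acsl3, an acyl-CoA synthetase gene, at 0.74 and Hao2, a hydroxyacid oxidase gene, at 0.76. All 5 had the same order of the 4 arrays as S100g. Lpl and Nupr1 also passed 2-fold in both germ-free contrasts, on the lower side, with log2 differences of -1.86 and -1.74 in colon and -1.76 and -1.11 in ileum. Since only 4 arrays enter and the genes were selected for likeness, the distance is a description.

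**Figure D4:**
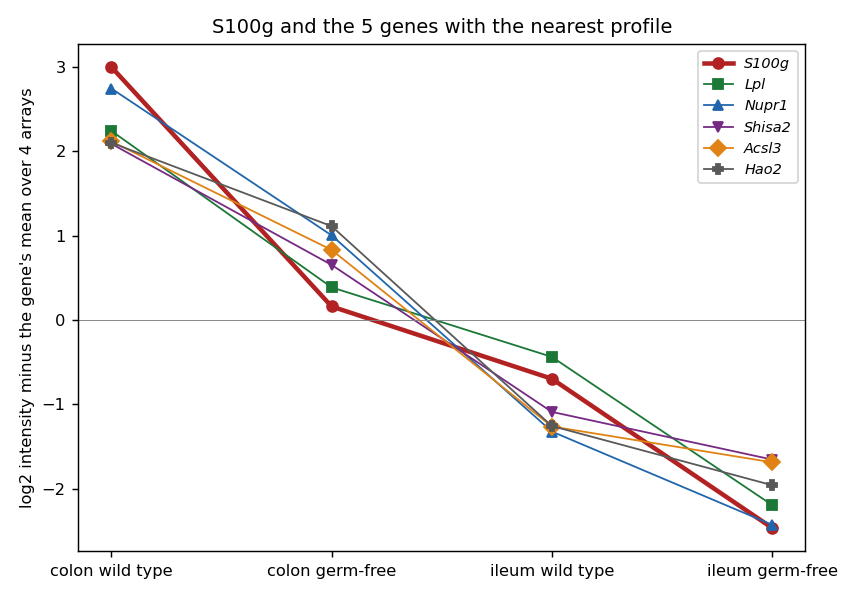
Log2 intensity minus the mean of the gene over the 4 arrays for S100g (thick red line) and the 5 genes with the nearest profile, in the order wild type colon, germ-free colon, wild type ileum and germ-free ileum, with lines joining values of 1 gene. All 6 step down in that order, and Lpl, at a distance of 0.44, runs closest to S100g.

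Markers of other cells and of RNA quality moved with the germ-free state beside S100g and Atp2b1. The epithelium list had a median log2 difference of 0.12 in colon (summed intensity 99869 on the germ-free against 93563 on the wild type array) and -0.09 in ileum (101938 against 107575). Past 2-fold on the lower side in germ-free colon were 2 of 7 colonocyte markers, the water channel Aqp8 (76.4 against 545) and Slc37a2 (38.7 against 315), with a summed intensity of 42730 against 49502. Of all genes 3.23% were lower by that much between the colon arrays and 1.29% higher. Of 9 measured absorptive enterocyte markers 3 were at least 2-fold higher in germ-free colon, with a sum of 28124 against 23785 and Lct under the floor. These 3 were Slc15a1 (586 against 81.3), Dpp4 (1169 against 347) and Apoa1 (245 against a floored 34.8), while 2 of the 9 were lower. Of the ileal enterocyte markers 1 of 2 measured, Fabp6, was at least 2-fold higher there (6008 against 767). That list summed to 6466 against 1067, with Fgf15 under the floor.

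Immune and stromal markers were lower in part. Of the plasma and B cell markers, 2 of 4 measured were lower by 2-fold or more in colon (7382 against 11270 summed) and 2 of 5 in ileum (7936 against 17395), with Cd79a and Ms4a1 under the floor on all arrays. Lymphocyte markers had 2 of 4 lower in colon (559 against 1015) and 2 of 4 in ileum (1025 against 1538), with Cd3e, Cd3d, Cd3g, Cd8b1 and Cd2 under the floor. Myeloid markers had 1 of 6 lower in colon (2088 against 2243) and 1 of 7 in ileum (3061 against 3718), with Cd68 under the floor. In each region 2 of the measured myeloid markers had a log2 difference above 0, up to 0.98 in colon and 0.41 in ileum. Smooth muscle and fibroblast markers had 1 of 8 higher in colon (4349 against 4614) and 4 of 12 lower in ileum (4831 against 7252), with Myh11 and Cnn1 under the floor. Endothelial markers had 1 of 5 lower in colon (386 against 827) and 0 of 5 in ileum, and tuft cell markers 2 of 2 lower in colon (230 against 475) and 0 of 2 in ileum. In the control probe sets as deposited, the signal from the 5′ end relative to the 3′ end shifted with the germ-free state by -0.48 log2 for Gapdh, -0.12 for Actb and -0.43 for pyruvate carboxylase in colon. These shifts were -1.10, -1.20 and -0.28 in ileum. The median of the 18S ribosomal RNA control probe sets shifted by -1.23 log2 in colon and -0.93 in ileum. The part of these markers and of RNA quality in the S100g and Atp2b1 differences was not tested. With the arrays scaled on the epithelium markers S100g gave -2.92 in colon and -1.68 in ileum.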

How the data were processed

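The authors deposited 1 linear intensity per probe set and array, computed with dCHIP2004 per the labels' design text. The sources used here do not give its background, model or normalization options. Each array holds RNA of 4 mice, amplified in 2 rounds. The 64 control probe sets were left out. Because median log2 intensity over the brighter 50% differed by 0.32 between arrays, past a limit of 0.25, log2 values were quantile-normalized. Lower values were set to a floor at the pooled median, and a gene counted as measured if at least 1 of the compared arrays was above it. The platform annotation gave 34945 probe sets 1 symbol (932 several, 9160 unnamed here), updated through RefSeq gene identifiers, which changed 0. Differences of log2 values were counted at 2-fold, without tests. Gene lists held 204 entries, 187 matched. From each pathway list the genes past 2-fold were named, at most 4 by size, with other genes where their value was the point. Members and lists were chosen with earlier results of these data known. Python 3.11.15, numpy 2.4.6 and pandas 2.3.3 were used. The normalization, floor and 2-fold count were run on simulated arrays with known changes in bright genes. Changes near the floor and differences between mice were not simulated. Alternatives changed the scaling, the floor, the rule for a gene's probe sets and the probe sets used.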

Additional observations from a re-analysis of the deposited data

Results flagged for a closer look

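Rxra had opposite germ-free changes by its brightest probe set, 0.25 log2 higher on the germ-free colon array and -0.20 on the germ-free ileum array, a difference of 0.45 that was not tested. The combined technical error was 0.42, and 32.4% of genes measured in both regions had a larger absolute difference. Its other probe set above the floor gave 0.01 and -0.03, and the mean of its 3 probe sets, which takes in 1 under the floor, gave -0.22 and -0.60.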

How the results depend on the processing

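Over 31 results and 8 alternatives, 225 of 239 values moved by less than the technical error or, for counts, by no more than 1.5 times, and 14 moved further. No difference past 2-fold changed sign, but 10 smaller ones did, each of 0.25 log2 or less, for Trpv6, Vdr or Rxra. Scaling on the epithelium markers was added after seeing the data. The S100g change ran from -3.01 to -2.76 in colon, and in ileum from -1.81 to -1.68 except with a floor at the pooled 75th percentile, which lies above the germ-free ileum reading and made it a bound of -0.70. That floor also left 0 members past 2-fold between the ileum arrays, gave -1.55 for S100g between regions in germ-free mice and -2.14 for the difference between its colon and ileum changes. With the floor lowered to the 25th percentile, or left out, 2 members passed 2-fold between the colon arrays and 2 between the ileum arrays, since Cyp24a1 was then counted at -1.12 in colon and at -1.06 or -1.37 in ileum. Over all genes the floor set the counts past 2-fold: 531 between the colon arrays became 1177 (25th percentile), 186 (75th) and 2864 (none), and 339 where the probe sets of a gene were averaged. For ileum 109 became 378, 27 and 1856, for the regions in wild type 1437 became 822 (75th) and 3583 (none), and in germ-free mice 1588 became 2432, 803 and 4152. No paired analysis was possible because each group is 1 array. Signal near the floor limits Trpv6 and Cyp24a1.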
